A study of Homo sapiens with 2 samples.

Results

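The high mobility group (HMG) proteins are small, abundant chromatin proteins, and 9 of their genes were examined here: HMGA1, HMGB1, HMGB2, HMGB3, HMGN1, HMGN2, HMGN3, HMGN4 and HMGN5. They were chosen by gene symbol. Each had 1 entry among the 57326 gene symbols of the deposited table, and all 9 passed the minimum of a mean of 1 TPM over both libraries, as did 13307 genes in all. RNA-seq had been made from 22Rv1 cells, a human castration-resistant prostate cancer line. The shCON cells carried a vector control and the shEIF3F cells a short hairpin RNA against EIF3F, the gene for a subunit of the translation initiation complex eIF3. Each group was 1 library, so no value has a replicate check, an error or a p-value, and effects of the hairpin other than the loss of EIF3F cannot be told apart from that loss. Values are TPM, a relative transcript abundance that scales each gene to its transcript length and each library to its own total. No read number is kept in them, and the depth behind them is unknown.

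HMG proteins fall into 3 families that bind chromatin through unrelated motifs. HMGA proteins hold AT-hooks, short segments that grip the minor groove of AT-rich DNA. HMGB proteins bend DNA with HMG boxes, and HMGB1 can also leave the cell and act as an alarm signal. HMGN proteins bind the nucleosome core itself and counteract compaction by linker histones. HMGA1 is high in many carcinomas, HMGB2 is known as a transcript of dividing cells, and loss of HMGB1 or HMGB2 from chromatin is known from senescent cells.

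The targeted transcript, EIF3F, went from 991 TPM with the control vector to 17.0 TPM with the hairpin, in the direction the labels give. Pairs of TPM values are given in the order shCON, shEIF3F. All 10 luminal prostate markers checked had a mean of 1 TPM or more, but their levels went both ways. As deposited 5 were at least 2-fold lower (25.5% of all genes tested) and 2 higher (8.44%). After centring on the median of all genes 2 were lower (16% of all genes) and 3 higher (14.7%). KLK2, at 32.6 and 2.5 TPM (log2 ratio -3.26), was the lowest, while EPCAM (1.73) and FOLH1 (1.72) were higher and KRT8, at 301 and 347 TPM, was within 2-fold. Of 9 leukocyte, endothelial and stromal markers, 4 reached that mean, with a summed level of all 9 of 41.2 and 32.3 TPM, and VWF was listed at 0 in both. LUM, at 24.3 and 20.9 TPM, and DCN, at 12.9 and 4.86 TPM, made up most of that sum, and CD68 went the other way, at 1.2 and 5.34 TPM. The part of either marker list in the HMG values was not tested.

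HMGA1 was higher in the shEIF3F library, HMGB1, HMGB2 and HMGN2 were lower, and the other members lay within 2-fold. The log2 ratio used throughout is log2((shEIF3F TPM + 1) / (shCON TPM + 1)), and a gene at 1 or more, or at -1 or less, is called at least 2-fold higher or lower, a rule of size and not a test. By it 3 of the 9 members were lower, where 25.5% of all genes tested were, and 1 member was higher, where 8.44% of all genes were. On the deposited scale the members' counts thus lay near the background and do not set the 9 genes apart as a group. Their median log2 ratio was -0.86, against -0.36 over all genes. As deposited 8 of the 9 had a ratio below 0, but 56.5% of all genes lay below even HMGN4 (-0.21). Only 6 members were below 0 after centring, and 5 after rescaling without the 100 most abundant genes. The span from the lowest to the highest member was 4.07 on the log2 scale, so the differences among members were large beside the group's median. In bulk RNA, fewer cells of a type and less RNA per cell cannot be told apart.

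**Figure D1:**
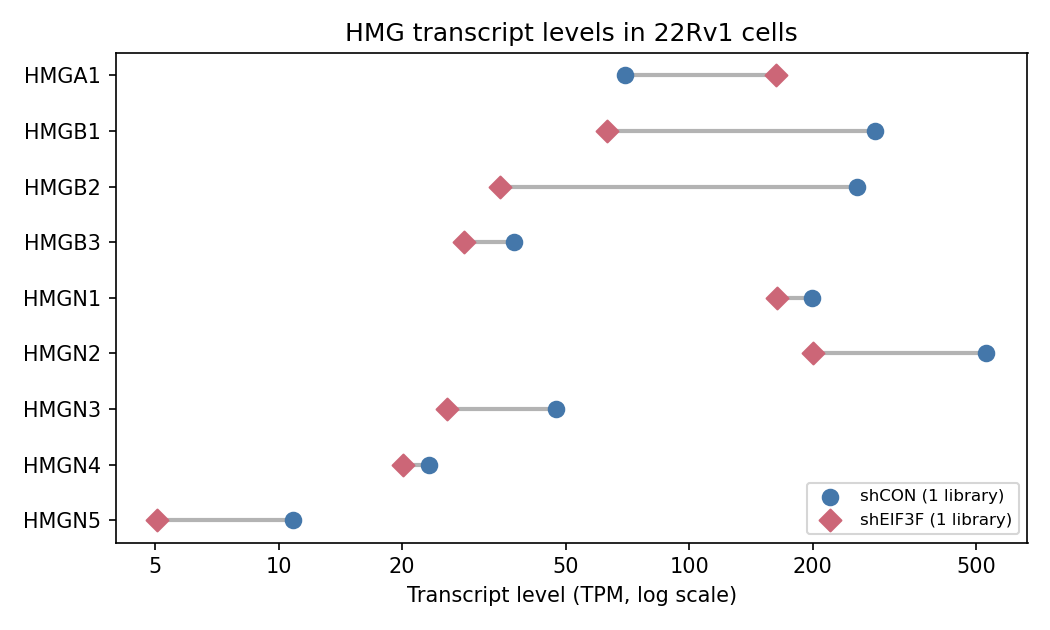
Transcript level of each HMG gene in TPM (log axis) in the shCON library (circles) and the shEIF3F library (diamonds), 1 library per group and no error bars. HMGA1 is the member with the higher level in shEIF3F, and the longest lines toward lower levels belong to HMGB2 (257 to 34.6 TPM) and HMGB1 (283 to 63.0 TPM).

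The scale of the libraries moved with these values. The median of all genes was -0.36, so centring on it adds 0.36 to every log2 ratio, and rescaling without the 100 most abundant genes added a median of 0.38. As deposited, 24.8% of the genes past 2-fold were higher, against 47.9% after centring. Once ratios were centred, 3 members were past 2-fold on the lower side (16% of all genes) and HMGA1 was higher (14.7% of all genes). With a trend in transcript GC content removed, 4 members were lower (13.9% of all genes) and 1 higher (13.3%), HMGN5 being the added member. Among the 1919 genes whose mean reached 50 TPM, which include 5 members, 3 members were lower (32.7% of those genes) and 1 higher (7.61%). Under rescaling 2 members were lower, because HMGN2 came to -0.97, where 15.8% of all genes were lower. HMGA1, HMGB1 and HMGB2 stayed past 2-fold in the same direction under all 10 alternatives tried. The sign for HMGB3, HMGN1 and HMGN4 depended on scaling: after rescaling they stood at 0.023, 0.15 and 0.21, and after centring at -0.039, 0.077 and 0.15.

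**Figure D2:**
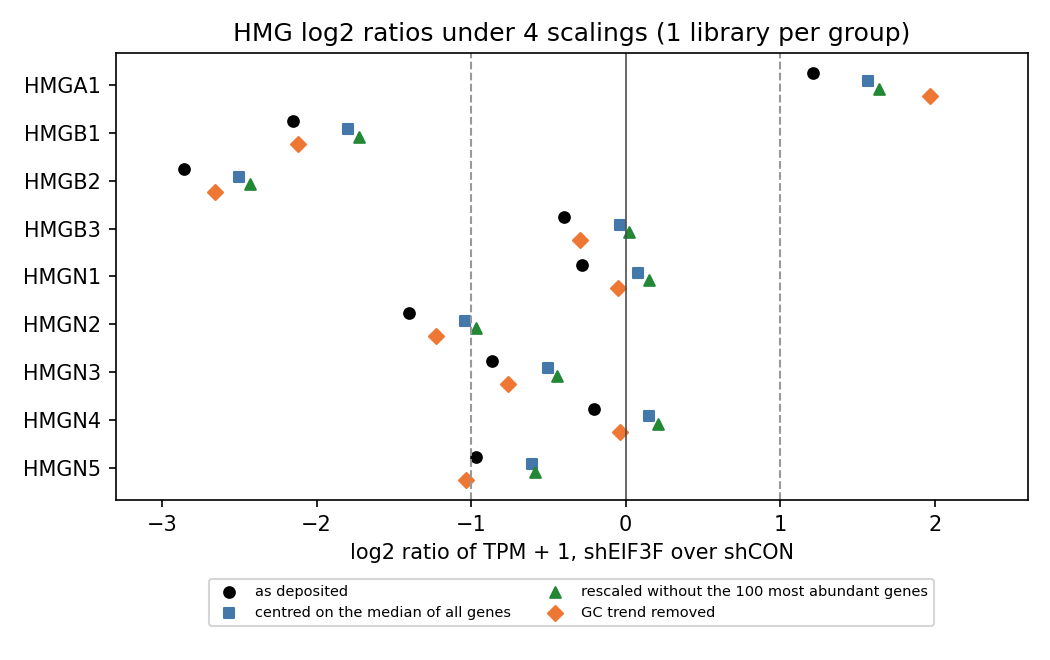
log2 ratio of TPM + 1 (shEIF3F over shCON, 1 library each) for the 9 HMG genes as deposited, centred on the median of all genes, rescaled without the 100 most abundant genes, and with the GC trend removed; dashed lines mark 2-fold. HMGA1 lies above 1, and HMGB1 and HMGB2 lie below -1, under all 4 scalings, while HMGN2 runs from -1.40 to -0.97.

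HMGA1, the only HMGA gene among the 9, encodes the AT-hook protein that remodels enhancers in embryonic and tumour cells. Its level was 69.8 TPM in the control library and 162.6 TPM in the hairpin library. That is 2.33-fold higher in TPM, with a log2 ratio of 1.21 at percentile 94.1 of all genes tested. Its rank by level moved from 1649 to 524 of 13307 genes. The longest HMGA1 transcript has a GC content of 61.3%, and the 659 genes of similar GC content (60.8% to 62.6%) had a median log2 ratio of -0.76. Relative to them HMGA1 stood at 1.97, the largest shift by this correction for any member. The other HMGA gene, HMGA2, known as an oncofetal gene, was at 0.99 and 1.51 TPM, so HMGA transcripts were almost wholly HMGA1 in both libraries.

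HMGB1 encodes the most widely expressed HMG-box protein. It was at 283 and 63.0 TPM, 4.50-fold lower in TPM (log2 ratio -2.15, percentile 5.43). Its alternatives ranged from -2.17 to -1.72. HMGB2, the paralogue best known from proliferating cells, was at 257 and 34.6 TPM. It was 7.43-fold lower (-2.86, percentile 2.13) and had the lowest ratio of the 9, with a range of -2.89 to -2.43 over the alternatives. HMGB3, known from stem and progenitor cells, was at 37.5 and 28.3 TPM, a ratio of -0.40 at percentile 48.4, close to the middle of all genes. Summed over the 3 genes, HMGB transcripts were at 578 and 125.8 TPM, 4.59-fold lower.

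The 3 HMGB genes differed unequally, and ratios between genes of a library do not depend on how that library was scaled. HMGB3 amounted to 0.13 of HMGB1 in shCON and 0.45 in shEIF3F, a 3.39-fold change of the ratio. Against HMGB2 it went from 0.15 to 0.82, a 5.60-fold change. HMGB2 relative to HMGB1 moved less, from 0.91 to 0.55. HMGB3 thus made up 6.49% of HMGB transcripts in shCON and 22.5% in shEIF3F, while HMGB2 made up 44.5% and 27.5% and HMGB1 49.0% and 50.1%.

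HMGN2, which encodes a nucleosome-binding protein found in nearly all cells, was the most abundant of the 9 in both libraries, at 529 and 199.8 TPM. It was 2.65-fold lower (log2 ratio -1.40, percentile 15.3), and at -0.97 it was just within 2-fold after rescaling. HMGN1, its close relative encoded on chromosome 21, was at 199.55 and 164.1 TPM (-0.28, percentile 53.2). HMGN1 therefore moved up in rank among all genes tested, from 633 to 516, although its TPM was slightly lower. The ratio of HMGN2 to HMGN1 was 2.65 in shCON and 1.22 in shEIF3F.

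The remaining HMGN genes were less abundant. HMGN3, linked to glucose homeostasis in pancreatic islet cells, was at 47.5 and 25.7 TPM (log2 ratio -0.86). HMGN4, an intronless gene that arose from an HMGN2 transcript, was at 23.3 and 20.1 TPM (-0.21). It did not follow its parent gene: HMGN4 relative to HMGN2 went from 0.044 to 0.10, a 2.28-fold change of the ratio. HMGN5, an X-linked member with a long acidic tail, was the least abundant in both libraries at 10.8 and 5.06 TPM. Its TPM was 2.14-fold lower, but on the log2 scale with 1 TPM added it stood at -0.97, just inside 2-fold. It passed 2-fold with 0.1 TPM added (-1.08) or with the GC trend removed (-1.04). HMGN3 shares exon bases with the antisense transcript HMGN3-AS1, which was at 0.43 and 1.1 TPM. Since the labels do not say whether strand was used, reads of that overlap cannot be told apart.

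Summed over all 9 genes, HMG transcripts were at 1457 and 703 TPM, a log2 ratio of -1.05, or -0.69 relative to the median of all genes. The HMGN sum, 809.8 and 414.7 TPM, was 1.95-fold lower. HMGN transcripts held a similar share of the HMG sum in both libraries, 55.6% and 59.0%. The HMGB share was 39.6% in shCON and 17.9% in shEIF3F, and that of HMGA1 4.79% and 23.1%. HMGA1 relative to HMGB1 went from 0.25 to 2.58, a 10.5-fold change, and relative to HMGB2 from 0.27 to 4.70, a 17.3-fold change. By level the order in shCON was HMGN2, HMGB1, HMGB2, HMGN1, HMGA1, HMGN3, HMGB3, HMGN4 and HMGN5. In shEIF3F it was HMGN2, HMGN1, HMGA1, HMGB1, HMGB2, HMGB3, HMGN3, HMGN4 and HMGN5. HMGN1 at 164.1 TPM and HMGA1 at 162.6 TPM were almost level in shEIF3F, and with 1 library per group no neighbours in either order can be said to differ.

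**Figure D3:**
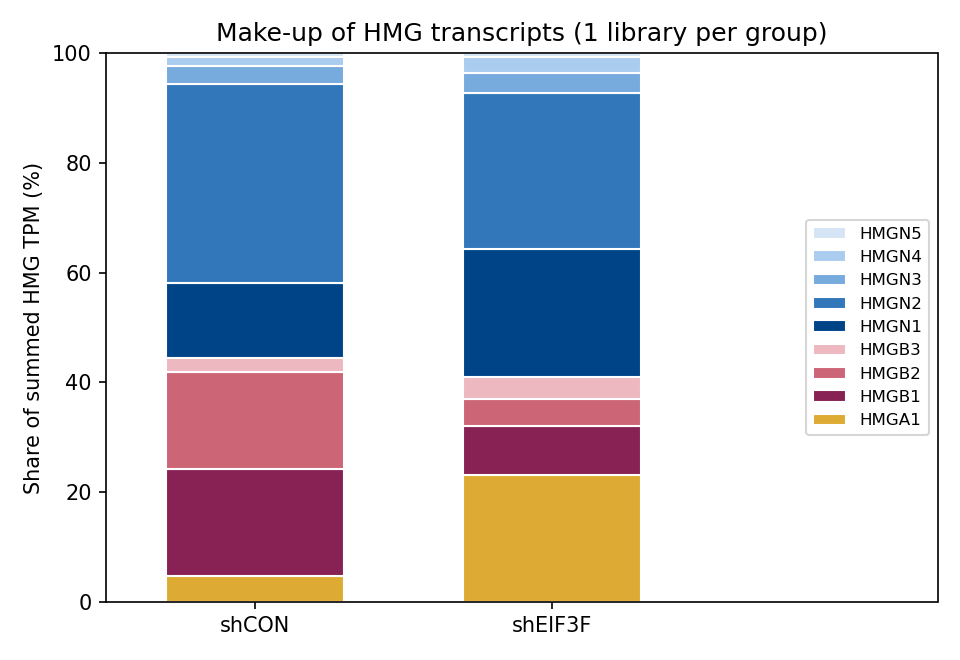
Share of the summed HMG TPM (%) held by each gene in the shCON and shEIF3F libraries (1 each), stacked to 100%. HMGA1 goes from 4.79% to 23.1%, HMGB1 and HMGB2 shrink from 19.4% to 8.96% and from 17.6% to 4.92%, and the HMGN genes together keep 55.6% and 59.0%.

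HMGB1, HMGN1, HMGN2 and HMGB3 have many processed pseudogenes, reverse-transcribed copies whose sequence can take reads from the parent gene. The table held 154 entries named as pseudogenes of the 9 members, of which 131 were listed at 0 in both libraries and 6 had a mean of 1 TPM or more. Together they stood at 106 and 65.4 TPM. HMGB1P6 alone held 62.0% and 54.6% of that, at 65.8 and 35.7 TPM (log2 ratio -0.86), followed by HMGB1P5 at 18.5 and 3.6 TPM (-2.08) and HMGN2P5 at 4.68 and 10.7 TPM (1.04). The value of HMGN2P5 was opposite in direction to that of HMGN2. The spans of HMGN2P5 and HMGB1P6 overlap those of protein-coding genes on the opposite strand, without shared exon bases. That of HMGB1P6 also overlaps an antisense gene on the same strand. Reads from those genes were not told apart.

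For HMGB1 the pseudogene entries were not small. They added 91.2 and 40.4 TPM, 24.4% and 39.1% of gene and pseudogenes together. With them HMGB1 was at 374 and 103 TPM, a log2 ratio of -1.85 in place of -2.15. For HMGN2 they were 2.38% and 8.42% of the sum, and the ratio went from -1.40 to -1.31. HMGB3 moved from -0.40 to -0.20, through HMGB3P22 at 0.29 and 4.62 TPM. That entry was singled out after its values were seen, and its annotated exons overlap those of CBY3 on the opposite strand. Its span also overlaps that of the protein-coding gene CANX on the same strand, without shared exon bases. HMGB2 has 1 such entry, listed at 0, and HMGN4 and HMGN5 have none.

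The scope for shared reads was also read from transcript sequences. Of all 50-base stretches of the longest HMGN2 transcript, 34.2% occurred exactly in a transcript of another gene, HMGN2P5 first (15.7%). The share was 18.0% for HMGN1, 15.7% for HMGB1, 15.0% for HMGN3 (wholly HMGN3-AS1), 8.10% for HMGA1, 3.82% for HMGB3 and 0.54% for HMGB2. HMGN4 and HMGN5 shared none. At 100 bases the shares were 11.8% for HMGN2 and 7.63% for HMGB1, 10.3% for HMGN3, 1.87% for HMGN1 and 0.12% for HMGB3, and none was left for HMGA1 or HMGB2. The labels give neither the read length nor how reads that map to several places were treated. HMGB2 and HMGA1, the members with the lowest and the highest ratio, shared no 100-base stretch with another gene, but 0.54% and 8.10% at 50 bases. With the read length unknown, the values of HMGN2, HMGN3, HMGB1, HMGN1 and HMGA1 are uncertain. The shares do not give the size of that error.

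The DNA just upstream of the members was searched for short motifs in RefSeq windows (GRCh38.p14) that run from 250 bases before to 50 bases after a gene's start. Of the 9 genes 8 matched, HMGB2 being the missing entry, and the first listed start was used. The CCAAT box, the pentamer CCAAT bound by the factor NF-Y, occurred on either strand in 6 of the 8 windows, against 35.7% of the first windows of 27305 genes. In 4 of the 8 it occurred at least 2 times (11.3% of all) and in 2 at least 3 times (3.42%). These 2 were HMGB1 and HMGB3, whose CCAAT boxes are shown with those of HMGN1 and HMGN2, since the 4 genes carry the box but differed in ratio. Sequences run 5′ to 3′ on the gene's strand, and capitals mark CCAAT, and in HMGN2 also CACGTG. In HMGB1 the boxes start 103, 59 and 28 bases before the start, in HMGB3 144, 101 and 55, in HMGN1 98 and 13, and in HMGN2 22.
HMGB1 distal (chr13:30466023-30466051, minus strand): ccccggagacagCCAATagcaaacgggct
HMGB1 middle (chr13:30465979-30466007, minus strand): ggaggtatcgggCCAATgagcgagccccg
HMGB1 proximal (chr13:30465948-30465976, minus strand): agttggcggtagCCAATaggagccgcgct
HMGB3 distal (chrX:150983179-150983207, plus strand): cagcagccgcgcCCAATgggcgtccacgc
HMGB3 middle (chrX:150983222-150983250, plus strand): tgaggcccgcagCCAATggccaggcgagg
HMGB3 proximal (chrX:150983268-150983296, plus strand): agagcccgctggCCAATcaggcggctctc
HMGN1 distal (chr21:39349170-39349198, minus strand): tgagtcccgtagCCAATgggcgggggtgg
HMGN1 proximal (chr21:39349089-39349117, minus strand): aggaggaggcgggctcCCAATccggttcc
HMGN2 (chr1:26472397-26472425, plus strand): gccCACGTGaccccagctgggCCAATgaa

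HMGB1 (-2.15) and HMGB3 (-0.40) thus carry 3 upstream CCAAT boxes each and differ in log2 ratio. HMGN3 holds 2. HMGA1, the member that was higher, has none in the 250 bases before its first listed start. A match on the opposite strand lies 39 bases into that transcript. Before other listed starts, opposite-strand CCAAT matches lie 146 bases upstream for HMGA1 and 115 for HMGB1. HMGN4 and HMGN5 hold none. The E-box CACGTG, which MYC and MAX can bind, occurred in HMGN2 alone among the 8 (7.43% of all first windows). The CHR element TTTGAA, known from genes of late cell cycle, occurred in HMGB3 alone of the 8 (15.4%). A CHR match also lies 246 bases before another listed start of HMGB1. TATAAA occurred in HMGN2 alone (11.95%), 37 bases after its start. None of the E2F-type octamers TTTCCCGC, TTTCGCGC, TTTGCCGC and TTTGGCGC was found in the 8 windows (3.33% of all). Both strands were searched, and no match overlapped that of another motif. A match is a description of the letters and not a site of binding.

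Relative to transcripts of dividing cells, the members spread widely. A list of 16 cell cycle genes had been chosen with earlier results of these data known. All 16 were at least 2-fold lower, where 25.5% of all genes were. Their log2 ratios ran from -5.26 to -2.07, with a median of -3.45. HMGB2 (-2.86) lay inside that range, below 5 of the 16 genes and above 11. HMGB1 (-2.15) lay at its upper end, below 1 gene and above 15. The other 7 members lay above all 16. The genes nearest to HMGB2 in log2 ratio, of 3780 protein-coding genes whose mean reached 20 TPM, were LMNB2 (153 and 20.2 TPM), ATG4B (65.4 and 8.18 TPM) and CENPH (58.0 and 7.16 TPM). Nearest to HMGA1 were ZNF358 (31.8 and 74.9 TPM), SHD (16.5 and 39.55 TPM) and ISCU (94.2 and 218.7 TPM). This likeness rests on 1 ratio from 2 libraries.

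Other genes with an HMG name or an HMG box went in both directions. Of the 6 other HMG-named genes 5 were measured, with a median log2 ratio of -0.75 and 2 at least 2-fold lower (25.5% of all genes). HMG20B, a subunit of the LSD1 and CoREST corepressor complex, was at 244 and 66.5 TPM (-1.86, or -0.95 with the GC trend removed), and HMGXB4 at 11.5 and 4.97 TPM (-1.07, or -0.71 after centring). HMGXB3 stood at -0.75, and HMGB4, a germ cell gene, was listed at 0 in both. Among 12 measured HMG-box chromatin proteins 0 were at least 2-fold lower and 2 higher, where 25.5% and 8.44% of all genes were. The 2 were TOX at 0.41 and 5.57 TPM (2.22, or 0.97 with a pseudocount of 5) and TOX3 at 3.8 and 14.9 TPM (1.73). After centring 3 were higher (14.7% of all genes), with TOX4 at 1.08, and after rescaling 4 were (15.1%). With a pseudocount of 5 only 1 was (3.56%). SSRP1, the HMG-box subunit of the histone chaperone FACT, was at 178 and 97.4 TPM (-0.86). Of 9 measured SOX and TCF/LEF factors 3 were lower, SOX12 (-2.24), TCF7L1 (-1.60) and TCF7 (-1.19), and SOX9 was higher (1.46), near the 25.5% and 8.44% of all genes. The number lower was 2 after centring, where TCF7 stood at -0.83, and 1 with the GC trend removed, where TCF7L1 stood at -0.84. With a pseudocount of 5, SOX9 stood at 0.94 and SOX12 alone was lower.

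Histone chaperones, which load and remove histones beside HMG proteins, had lower values in the median. Of 18 genes, 12 were at least 2-fold lower (25.5% of all genes) and 1 higher (8.44%), with a median log2 ratio of -1.38. After centring the median was -1.02 and 9 were lower (16% of all genes), and after rescaling 8 were (15.8%). ASF1B was at 91.3 and 1.47 TPM (-5.22), CHAF1A at 43.2 and 2.4 TPM (-3.70), HJURP at 14.3 and 0.39 TPM (-3.46) and NASP at 191 and 18.4 TPM (-3.31). These 4 chaperones, those with the largest absolute ratios of the 18, are also known to be raised in dividing cells. The 1 higher was NAP1L1, at 155 and 369 TPM (1.25). Linker histones, which compete with HMG proteins for linker DNA, had 3 of 7 genes measured: H1F0 at 223.8 and 63.5 TPM (-1.80), H1FX at 197 and 84.8 TPM (-1.20, or -0.85 once centred and -0.055 with the GC trend removed) and HIST1H1C at 11.8 and 33.9 TPM (1.45). In the SET complex, which contains HMGB2, TREX1 was at 68.55 and 10.1 TPM (-2.64) and the other 4 partners differed by less than 2-fold, APEX1 at 277 and 506 TPM (0.87), NME1 at 273 and 170 TPM (-0.68), SET at 164 and 217 TPM (0.41) and ANP32A at -0.37. After centring APEX1 was past 2-fold (1.22).

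The measured regulators of HMGA1 had ratios below 0, while HMGA1 itself was higher. MYC, which activates HMGA1 in other cells, was at 228 and 36.7 TPM (log2 ratio -2.60) and E2F1 at 46.8 and 1.97 TPM (-4.01), while SP1 stood at -0.65. LIN28A, LIN28B and MYCN did not reach a mean of 1 TPM. Of 10 kinases and acetyltransferases that modify HMGA or HMGN proteins, 3 were at least 2-fold lower and 1 higher, near the shares of all genes (25.5% and 8.44%). They were CDK1 at 11.9 and 0.4 TPM (-3.21), RPS6KA4 at 18.4 and 5.05 TPM (-1.68, or -0.78 with the GC trend removed), RPS6KA5 at 1.86 and 0.33 TPM (-1.10, or -0.75 after centring) and, higher, RPS6KA3 at 1.87 and 7.35 TPM (1.54, or 0.85 with a pseudocount of 5). Of 11 receptors and binders of extracellular HMGB1 only CD24 reached a mean of 1 TPM, at 16.4 and 47.85 TPM (1.49). TLR9, LY96 and CXCL12 were listed at 0 in both libraries.

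Senescence markers, examined because loss of HMGB1 or HMGB2 from chromatin is known from senescent cells, went both ways. That loss concerns the proteins, whereas the values here are transcript levels. LMNB1, a lamina gene that falls in senescent cells, was at 65.8 and 6.59 TPM (log2 ratio -3.14). The cyclin-dependent kinase inhibitor CDKN1A was higher (3.44). In contrast CDKN2A, whose products include p16, was at 126.8 and 49.6 TPM (-1.34, or -0.98 once centred and -0.58 with the GC trend removed). That gene-level value does not tell the transcripts of CDKN2A apart. The secreted factors IL6, CXCL8 and IL1B stayed under a mean of 1 TPM, and IL1A was listed at 0. The list had 5 of 10 genes measured, 2 lower (25.5% of all genes) and 2 higher (8.44%). After centring 1 was lower (16% of all genes) and 2 higher (14.7%).

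**Figure D4:**
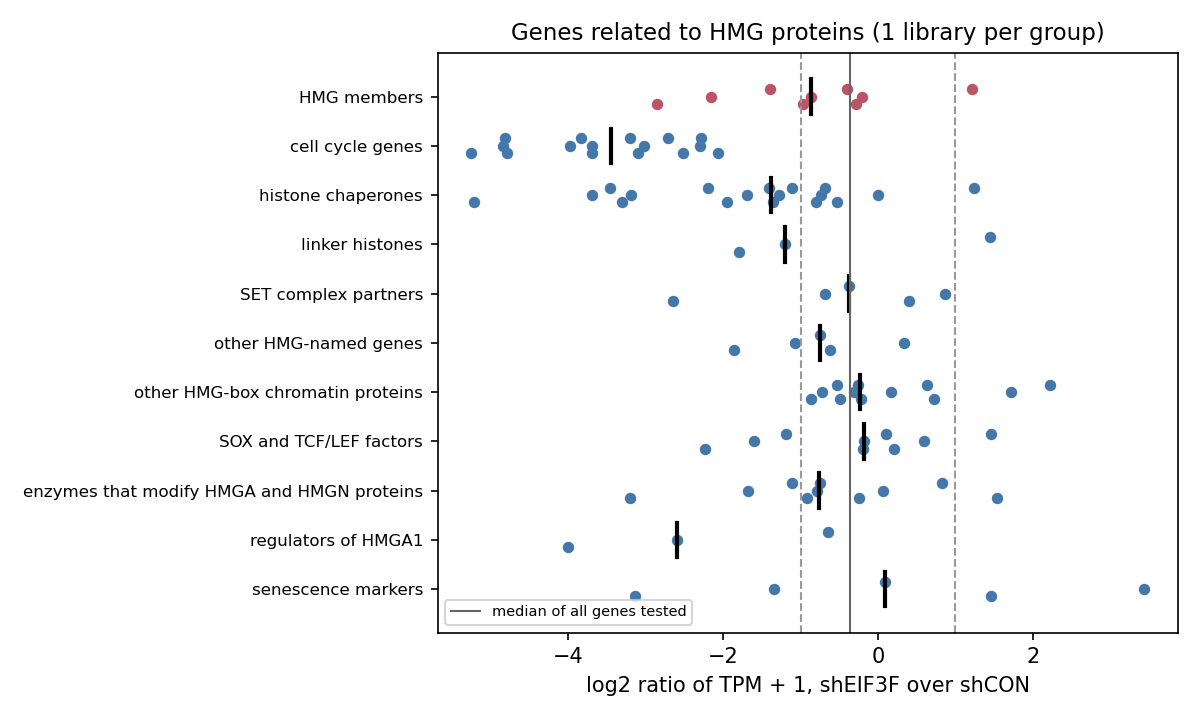
log2 ratio of TPM + 1 (shEIF3F over shCON, 1 library each) for the 9 HMG genes and for genes of 10 related lists whose mean reached 1 TPM; each point is a gene, black bars are list medians, the solid line is the median of all genes (-0.36) and dashed lines mark 2-fold. The HMG genes span -2.86 to 1.21, from the range of the cell cycle genes to beyond 2-fold higher.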

How the data were processed

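Total RNA from 22Rv1 cells was measured in 2 libraries, 1 per group. Trizol was used for RNA and a TruSeq RNA kit from Illumina for the libraries, per the labels' protocols. The authors deposited gene-level TPM, to 2 decimals, scaled within each library. The submitters' processing notes name CASAVA, HISAT2 and hg19, without versions. The gene counter, the annotation and strand use were not given in the sources used here. Columns were matched to groups by the sample descriptions.

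Entries that repeat a symbol were summed (1531), 27 entries whose symbols had become dates were left out, and so were 6030 symbols of small RNA genes. The log2 ratio with 1 TPM added was taken where the mean of both libraries reached 1 TPM. GENCODE release 29 gave gene type, exons, transcript sequence and GC content (known for 99.1% of genes tested). It describes GRCh38, so no coordinates were joined to the table. RefSeq gave the upstream sequences.

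The 9 members, the 13 gene lists and the naming rule were chosen with earlier results of these data known. The rule took EIF3F, the members, all other HMG-named genes, the 3 most abundant pseudogene entries, the cell type markers, up to 4 genes of each other list with the largest absolute log2 ratio, and the 3 genes nearest to the lowest and the highest member. Genes named beyond it (among them ANP32A, NAP1L1, CANX, CBY3, HMGB3P22, HMGN3-AS1, LIN28A, LIN28B, MYCN, TLR9, LY96, CXCL12, IL6, CXCL8, IL1A and IL1B) were chosen after their values were seen. Some genes that the rule covers are not reported here. Alternatives were pseudocounts of 0.1 and 5, no filter or means of 5 or 50 TPM, centring on the median, rescaling without the 100 most abundant genes, the most abundant entry per symbol, pseudogene entries added to members, and centring within 20 bins of GC content. Calculations used Python 3.11.15, NumPy 2.4.6, pandas 2.3.3 and matplotlib 3.10.9, and were tested on simulated data.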

Additional observations from a re-analysis of the deposited data

How the results depend on the processing

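With 1 library per group there was no spread to set a difference against, and no paired analysis was possible because each group has a single library. HMGA1 ranged from 1.16 to 1.97 over the alternatives, HMGB1 from -2.17 to -1.72 and HMGB2 from -2.89 to -2.43, all past 2-fold in their main direction. The number of members at least 2-fold lower was 3 as deposited, 4 with a pseudocount of 0.1 or the GC trend removed, and 2 after rescaling. At a mean of 50 TPM or more 5 members were left, with 3 lower and 1 higher. The number of all genes at least 2-fold lower was 3398 as deposited, 1897 with a pseudocount of 5, 628 at a mean of 50 TPM, 2130 after centring, 2112 after rescaling and 1838 with the GC trend removed. The number higher was 1123 as deposited, 474 with a pseudocount of 5, 615 at a mean of 5 TPM, 146 at 50 TPM, 1957 after centring, 2011 after rescaling and 1753 with the GC trend removed. Of 100 measured genes of the related lists, 48 were lower and 12 higher, where 25.5% and 8.44% of all genes were. The 16 cell cycle genes, all lower, are among the 48. After centring the counts were 36 and 16 (16% and 14.7% of all genes). With the GC trend removed they were 37 and 14 (13.9% and 13.3%). At a mean of 50 TPM, where fewer genes are tested, they were 20 and 3. With a pseudocount of 5, 7 were higher. Of 53 genes past 2-fold that the naming rule covers, 34 stayed past it under every alternative that could be computed for them and 19 came within 2-fold under at least 1, among them HMGN2, HMG20B, HMGXB4, H1FX, TOX, SOX9, TCF7, TCF7L1, RPS6KA3, RPS6KA4, RPS6KA5, CDKN2A, HOXB13, CD68 and DCN. Another 5, HMGN5 among them, passed 2-fold under at least 1. None of the 53 changed sign. Depth is unknown, so low values such as those of HMGN5, HMGA2 and the pseudogenes carry an error that cannot be stated.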
